A study of Rattus norvegicus with 19 samples.

Results

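The genes described here belong by symbol to families of the synaptic vesicle and exocytosis machinery, read in the T11 dorsal root ganglion, a spinal sensory ganglion at chest level. They were chosen by gene symbol: synaptotagmins, synapsins, SV2 proteins, VAMPs, syntaxins, syntaxin-binding proteins, SNAP proteins, complexins and every symbol that begins with Rab3. This choice also takes in genes of other membrane traffic, among them 11 Rab GTPases numbered in the thirties. Of 31042 probe sets other than controls, 107 carried such a symbol, and they belonged to 71 of the 14217 genes with a symbol of their own. A probe set is a group of array probes that reports 1 transcript as 1 log2 level, so a difference of 1 log2 unit is a doubling. Each gene was read through its brightest probe set over all arrays. This was the only probe set for 42 genes, and the other 29 genes had 36 further probe sets that served as a check.

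All rats were adult female Sprague-Dawley rats. Naive rats (n = 5) had no operation. In the operated rats, examined at day 7 (n = 7) or day 14 (n = 7), surgeons had cut the dorsal and lateral cutaneous nerves on one side at T9, T10, T12 and T13, so that the uncut T11 skin nerves bordered denervated skin and sprouted into it. The study presumed day 7 to stand for the start of this collateral sprouting and day 14 for its upkeep. Single ganglia were not pooled, and each rat gave 1 array after 2 rounds of RNA amplification. Because the naive rats were not operated, the effect of an operation and that of skin denervation cannot be told apart.

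Neurons release transmitter and peptide when a vesicle fuses with the plasma membrane. Fusion is driven by SNARE proteins that zip together from the vesicle side (VAMPs) and the target side (syntaxins and SNAP-25), synaptotagmins sense calcium, complexins and syntaxin-binding proteins, among them the Munc18 proteins, control the SNAREs, and Rab3 GTPases, synapsins and SV2 proteins act on the vesicle before fusion. Sensory neurons make these proteins in the ganglion and send most of them along the axon, and related SNAREs serve membrane addition at growing axons and traffic between endosomes, the Golgi apparatus and lysosomes.

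Markers of the labelled tissue were read on every array. The mean log2 level lay between 11.80 and 12.06 for 19 sensory neuron markers, 10.03 and 10.51 for 7 of satellite glia, and 9.83 and 10.73 for 10 of myelinating Schwann cells. It lay between 10.09 and 10.78 for 11 endothelial and fibroblast markers and 5.33 and 5.63 for 11 of spinal cord cells, and such means of different probe sets do not rank the cell types by amount. The mean of 14 measured skeletal muscle markers ranged from 6.49 to 9.90 and was highest on naive replicate 1 (9.90), day 7 replicate 7 (9.47) and day 14 replicate 2 (8.21). Myelinating Schwann cell markers were lower than naive for 10 of 10 measured genes at day 7, and macrophage markers were higher for 13 of 13 at day 14. Muscle markers were lower at day 14 for 14 of 14, both against naive (median -0.51) and against day 7 (median -0.45). No marker gene passed the test. The part of these other cells in the values below was not tested. In a whole ganglion, fewer cells of a type and less RNA per cell cannot be told apart. The 71 genes themselves hardly moved as a group from array to array: the median of their deviations from their own means lay between -0.053 on naive replicate 5 and 0.037 on day 14 replicate 2.

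No gene of the 71 differed between groups beyond the limma test at an adjusted p of 0.05 in any comparison. At day 7 that was 0 of 71 against naive, where 0% of all probe sets passed. At day 14 it was again 0 of 71 against naive, where 0.139% of all probe sets passed, and between day 14 and day 7 it was 0 of 71 where 0% passed. The smallest adjusted p in limma was 0.440 at day 7 (Vamp7), 0.0748 at day 14 (Syt16) and 0.283 between the days (Stx3). Values that follow are therefore given as levels and differences that did not pass, not as changes.

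The differences in log2 level were small, and for most genes the data bounded them to within 0.5 log2 units. Log2 differences from naive ran from -0.34 (Syt3) to 0.32 (Vamp7) at day 7 and from -0.43 (Syt16) to 0.34 (Rab3c) at day 14. Between the days they ran from -0.34 (Stx3) to 0.26 (Syt17). The 95% interval of the difference lay within 0.5 log2 units of 0 (a 1.41-fold difference either way) for 66 genes at day 7, 63 at day 14 and 69 between the days. It lay within 0.25 log2 units (1.19-fold) for 31, 28 and 36 genes. These bounds hold for array signal. The 71 include 10 genes below log2 6, and whether a narrow interval there bounds a difference in RNA was not tested.

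Directions were mixed. At day 7 40 genes lay above and 31 below naive (56.3% above, beside 48.7% of all genes), and at day 14 43 lay above and 28 below (60.6% beside 50.7%). Between the days 32 were higher and 39 lower at day 14 (45.1% higher, beside 51.9%). The median difference of the 71 genes was 0.03 at day 7, 0.02 at day 14 and -0.01 between the days, beside -0.00, 0.00 and 0.00 over all genes. The median size regardless of direction was 0.10, 0.11 and 0.05, against 0.07, 0.09 and 0.07 over all genes.

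At an unadjusted p under 0.05 the counts stayed near those of the other genes. Day 7 had 3 genes above naive (4.23% of the 71, beside 3.58% of all genes) and 4 below (5.63% beside 6.37%). Day 14 had 8 above (11.3% beside 9.17%) and 5 below (7.04% beside 10.2%). Between the days 2 were higher at day 14 (2.82% beside 6.11%) and 3 lower (4.23% beside 4.43%).

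**Figure D1:**
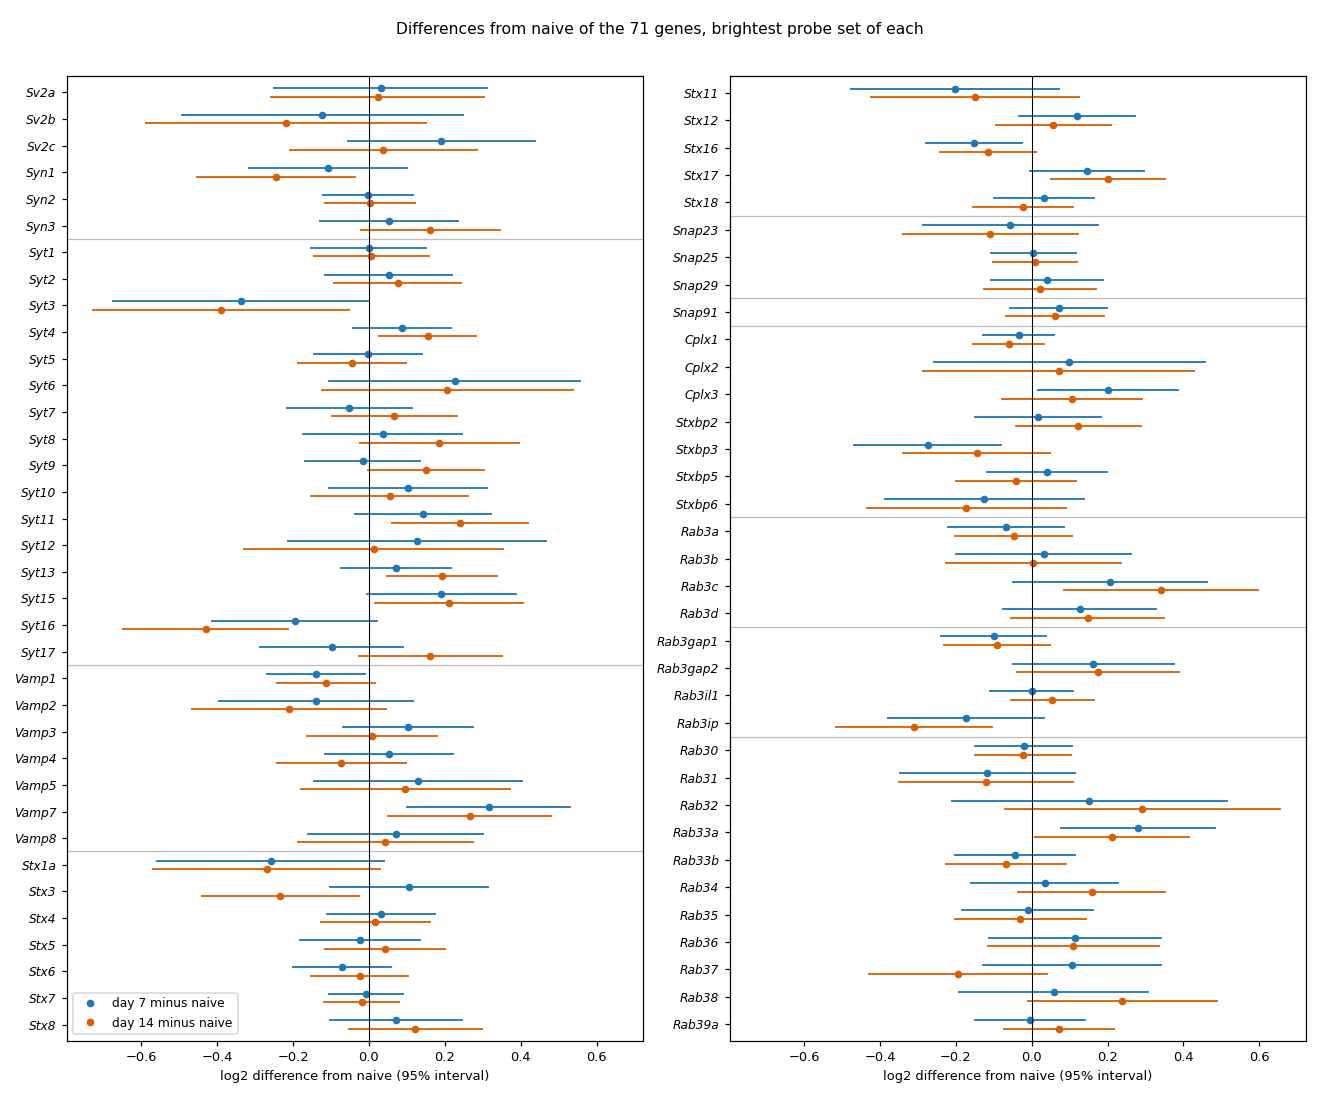
Log2 difference from naive of each of the 71 genes, grouped by role, with its 95% interval from limma, at day 7 (blue, n = 7) and day 14 (orange, n = 7) against naive (n = 5). All points lie between -0.43 and 0.34, and no gene passed an adjusted p of 0.05.

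Several genes of the presynaptic core varied little between rats. Snap25, the plasma membrane SNARE that botulinum toxin A cleaves, stood at 13.14, 13.04, 13.00, 13.00 and 13.07 on the naive arrays. It ran from 12.89 through a median of 13.06 to 13.16 at day 7 and from 12.93 through 13.08 to 13.17 at day 14. The 3 groups lay on top of each other, and the day 14 difference of 0.01 had a 95% interval from -0.10 to 0.12, that is 0.931-fold to 1.09-fold. Cplx1, a complexin that holds assembled SNAREs ready for calcium, had the smallest spread of all 71 genes (0.054, the SD between rats within groups). Its naive values were 13.00, 12.85, 12.88, 13.00 and 12.84, with 12.79, 12.89 and 12.90 as lowest, median and highest at day 7 and 12.80, 12.85 and 12.94 at day 14. These groups overlapped as well, and the difference at day 14 was -0.06 ± 0.04 (SE).

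Syn2, a synapsin that tethers vesicles in the reserve pool, read 11.91, 11.70, 11.69, 11.84 and 11.78 in naive rats, 11.70 to 11.97 at day 7 and 11.69 to 11.88 at day 14. Its difference was 0.00 ± 0.06 (SE) at either day. Stx7, a syntaxin of late endosomes, had a spread of 0.061 and differences of -0.01 and -0.02. For such genes a difference in log2 level of the size of the largest ones reported below would lie well outside the interval. Snap25, Cplx1 and Stx7 had mean levels of 13.06, 12.88 and 12.75, where the highest value of any probe set was 14.02. How closely the signal follows RNA at such levels was not tested.

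**Figure D2:**
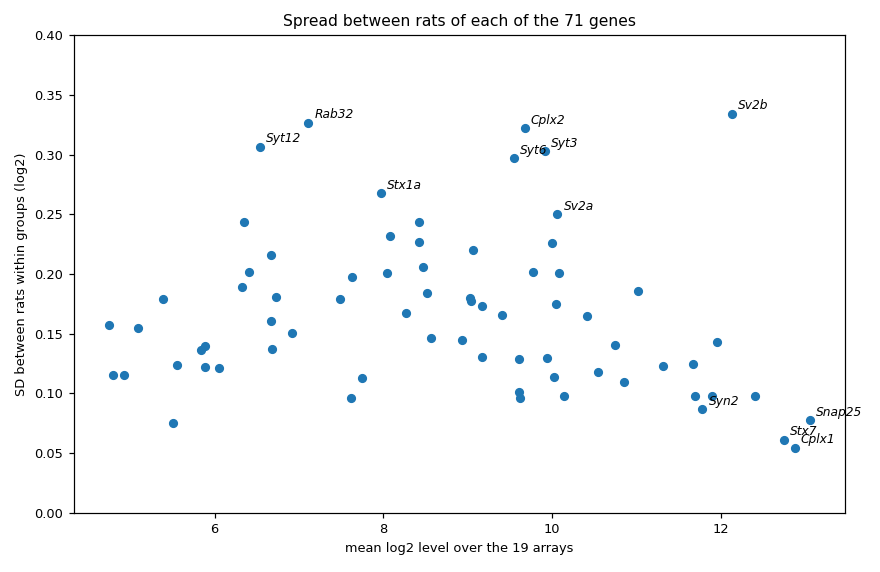
Standard deviation between rats within groups (y axis, log2) against the mean level over the 19 arrays (x axis, log2) for each of the 71 genes. The spread runs from 0.054 (Cplx1) to 0.334 (Sv2b), with a median of 0.157 beside 0.143 over all genes, and levels of different probe sets are not comparable as amounts of RNA.

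Sv2b stood at the other end of the range of spreads. This SV2 glycoprotein of vesicles had the widest spread of the 71 genes: naive values were 11.87, 12.51, 11.77, 12.57 and 12.58, day 7 ran from 11.58 through 12.06 to 12.60, and day 14 from 11.72 through 12.12 to 12.25. Naive and day 7 rats each covered high and low values over the same span, and the day 14 difference was -0.22 ± 0.18 (SE), or -0.34 without naive replicate 3 and -0.14 without naive replicate 5. Its further 2 probe sets differed by -0.06 and 0.14 at day 14. Sv2a, the target of the antiepileptic drug levetiracetam, differed by 0.03 ± 0.13 at day 7 and 0.02 ± 0.13 at day 14 (SE). Sv2c, a receptor for botulinum toxin A, differed by 0.19 ± 0.12 and 0.04 ± 0.12 (SE).

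Syn1, the synapsin most studied as a kinase substrate at terminals, stood at 9.01, 9.07, 9.25, 9.52 and 8.97 on the naive arrays, 8.85, 9.10 and 9.24 (lowest, median, highest) at day 7 and 8.72, 8.93 and 9.18 at day 14. At day 14 5 of 7 rats lay below the lowest naive rat and the groups overlapped. The difference was -0.25 ± 0.10 (SE, limma adjusted p 0.190), and the other Syn1 probe set, at a far dimmer signal, differed by -0.15 ± 0.09 (SE). Without naive replicate 4 the brighter one gave -0.16. Syn3 was read by a probe set below log2 6 and differed by 0.16 ± 0.09 (SE) at day 14. By count, 3 of the 6 synapsin and SV2 genes lay above naive at day 7 and 4 at day 14, with medians of 0.01 on both days.

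The 16 synaptotagmins held both the lowest value of the family at day 14 and the most genes at an unadjusted p under 0.05. At day 14 13 of 16 lay above naive, with a median difference of 0.11, where 50.7% of all genes did. These were all 6 synaptotagmins below a level of log2 6 and 7 of the 10 brighter ones, and 75.4% of all genes below log2 6 lay above naive. An unadjusted p under 0.05 was reached by 6 of the 16 (37.5%, beside 19.4% of all genes), 4 above and 2 below, and none passed adjustment. Syt16, a synaptotagmin relative thought not to bind calcium, read 6.20, 6.61, 6.74, 6.64 and 6.58 in naive rats. It ran from 6.11 through 6.31 to 6.63 at day 7 and from 5.88 through 6.11 to 6.40 at day 14. At day 14 6 of 7 rats lay below the lowest naive rat, which was naive replicate 1, the array with the highest muscle markers. The difference was -0.43 ± 0.10 (SE, limma adjusted p 0.0748), or 0.742-fold. Without naive replicate 1 it was -0.52 with an adjusted p of 0.0311, and with the leading letters of the animal codes as a block it was -0.15. Those letters are unexplained in the labels, and one of their kinds occurs in 5 of the 7 day 14 rats and in no other group. With this block those 5 rats add nothing to the estimate of a day 14 difference, which then rests on the other 2. A batch marked by the letters and the day cannot be fully told apart.

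Syt3, a high-affinity calcium sensor found outside synaptic vesicles, stood at 10.21, 10.21, 10.07, 10.56 and 9.89 in naive rats. Day 7 ran from 9.31 through 9.84 to 10.27, and day 14 from 9.37 through 9.82 to 10.27. Both operated groups reached into the naive range while 4 and 5 of 7 rats lay below it. Its differences were -0.34 ± 0.16 and -0.39 ± 0.16 (SE), with limma adjusted p of 0.572 and 0.196. The dimmer Syt3 probe set differed by -0.04 and 0.01, and the mean of both by -0.19 on either day.

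Syt4, a synaptotagmin of dense core vesicles, and Syt11, its close relative that does not bind calcium, both stood slightly above naive at day 14. Syt4 read 11.69, 11.65, 11.56, 11.48 and 11.67 in naive rats and 11.68, 11.77 and 11.81 (lowest, median, highest) at day 14, so that 6 of 7 rats exceeded the highest naive rat. The difference was 0.15 ± 0.06 (SE, limma adjusted p 0.184), and the other probe set, dim at a mean level of 5.01, gave 0.21 ± 0.08 (SE). Syt11 read 6.92, 6.67, 6.83, 6.75 and 6.72 in naive rats and 6.89 through 7.01 to 7.15 at day 14, where 5 of 7 rats exceeded the naive range. Its difference was 0.24 ± 0.09 (SE), and the limma adjusted p was 0.154.

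Syt1 and Syt2, the main sensors of synchronous release, were read by probe sets below log2 6 and differed by 0.01 ± 0.07 and 0.08 ± 0.08 (SE) at day 14. Syt7, a sensor of asynchronous release and lysosome exocytosis, differed by -0.05 at day 7 and 0.07 at day 14. Syt9, a sensor in secretory granules, differed by -0.02 and 0.15, and its day 14 value was 0.17 ± 0.07 (SE) above day 7 (limma adjusted p 0.379), or 0.02 with the animal code letters as a block. Syt17, a Golgi-associated family member, stood at 6.21 to 6.85 at day 7 and 6.65 to 6.99 at day 14, a difference of 0.26 ± 0.08 (SE) between the days with overlapping groups and an adjusted p of 0.320 in limma. Syt13 and Syt15, which do not bind calcium, lay 0.19 and 0.21 above naive at day 14.

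**Figure D3:**
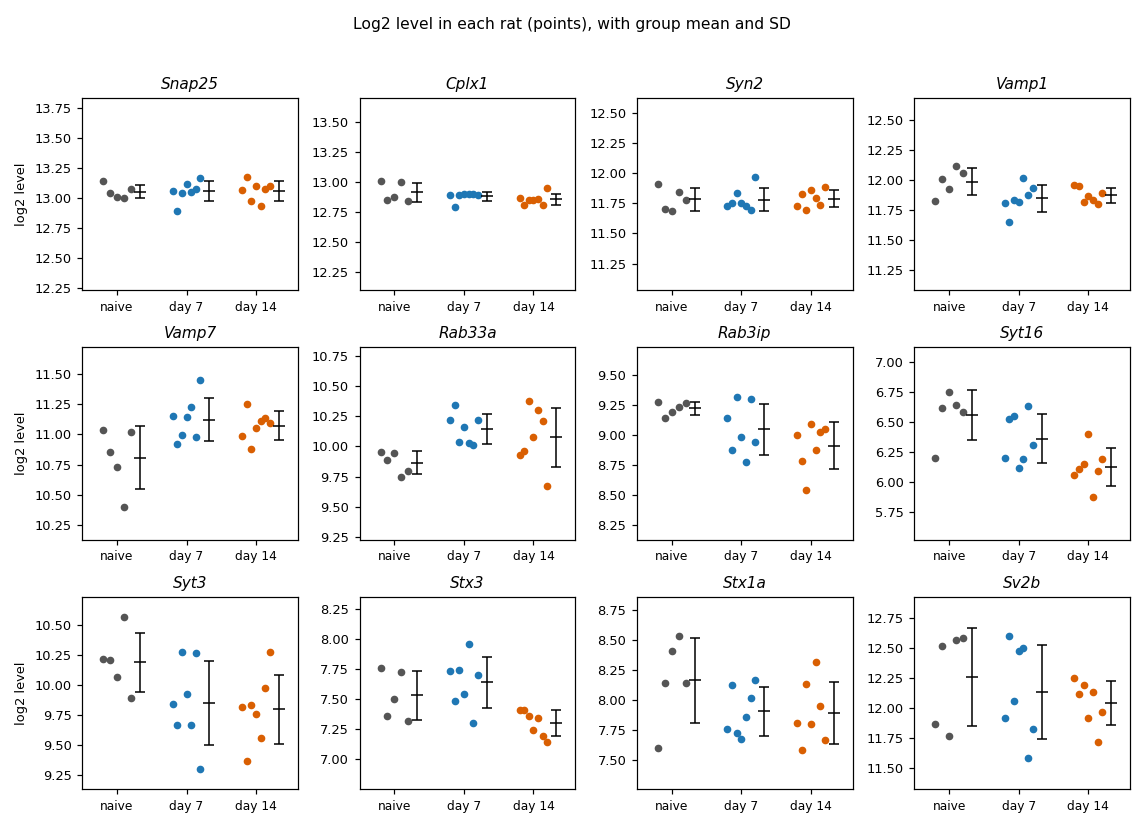
Log2 level in each rat (points) with the group mean and SD (bars) for 12 genes: naive (n = 5), day 7 (n = 7) and day 14 (n = 7), each panel with its own y axis of the same height in log2 units. Snap25, Cplx1 and Syn2 show narrow and overlapping groups, Rab33a at day 7 and Rab3ip at day 14 do not overlap with naive, and the remaining genes overlap.

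Of the vesicle SNAREs, Vamp7 stood farthest from naive and Vamp1 and Vamp2 lay slightly below it. Vamp7, a tetanus-insensitive VAMP that takes part in neurite outgrowth and in lysosome exocytosis, read 11.03, 10.86, 10.73, 10.40 and 11.02 in naive rats. It ran from 10.92 through 11.14 to 11.45 at day 7 and from 10.88 through 11.10 to 11.26 at day 14. The groups overlapped, with 4 of 7 rats at day 7 and 5 of 7 at day 14 above the highest naive rat. The difference was 0.32 ± 0.10 (SE) at day 7, 1.24-fold with an interval from 1.07 to 1.44, and 0.27 ± 0.10 (SE) at day 14. The limma adjusted p were 0.440 and 0.176. The day 14 value was 0.05 with the animal code letters as a block and 0.16 without naive replicate 4.

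Vamp1, the synaptobrevin that prevails in many peripheral and brainstem neurons, read 11.82, 12.01, 11.93, 12.11 and 12.06 in naive rats, 11.65 through 11.83 to 12.01 at day 7 and 11.80 through 11.87 to 11.96 at day 14. Its difference at day 7 was -0.14 ± 0.06 (SE, limma adjusted p 0.543), and its 2 dimmer probe sets differed by 0.08 and -0.00. Vamp2, the main synaptobrevin of brain terminals, had naive values of 9.64, 10.15, 10.34, 10.62 and 9.87 that spanned all operated rats. It differed by -0.14 ± 0.12 and -0.21 ± 0.12 (SE), and these values turned on single naive rats. They were -0.02 and -0.09 without naive replicate 4 but -0.26 and -0.33 without naive replicate 1. Vamp3, the cellubrevin of recycling endosomes, differed by 0.10 and 0.01, Vamp4 of the trans-Golgi network by 0.05 and -0.07, and Vamp8, an endosomal and secretory VAMP, by 0.07 and 0.04.

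Syntaxins split evenly at day 7, with 6 of 12 above and 6 below naive, and 5 lay above at day 14. Stx1a, the syntaxin of the neuronal plasma membrane, read 7.60, 8.14, 8.40, 8.53 and 8.14 in naive rats, with 7.67, 7.86 and 8.17 (lowest, median, highest) at day 7 and 7.59, 7.81 and 8.31 at day 14. Naive replicate 1 was as low as the lowest operated rats, and the groups overlapped. The differences were -0.26 ± 0.14 and -0.27 ± 0.14 (SE), with limma adjusted p of 0.635 and 0.300. They were -0.40 and -0.41 without naive replicate 1 and -0.17 and -0.18 without naive replicate 4. With the animal code letters as a block the day 14 value was -0.05. The other Stx1a probe set, near log2 5, differed by -0.04 and 0.05.

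Stx3, a syntaxin linked to neurite growth and to ribbon synapses, gave the largest gap between the days. Naive rats read 7.76, 7.36, 7.50, 7.72 and 7.32, day 7 rats 7.30 through 7.70 to 7.96, and day 14 rats 7.14 through 7.35 to 7.41. Day 14 rats clustered at the low end of the day 7 range, and 3 of 7 lay below it. Day 14 minus day 7 was -0.34 ± 0.09 (SE), 0.791-fold, limma adjusted p 0.283, and day 14 minus naive was -0.23 ± 0.10 (SE). The dim second probe set gave -0.02 between the days and 0.12 against naive, and the mean of both gave -0.18 and -0.06. With the animal code letters as a block the difference from naive was -0.39.

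The remaining syntaxins serve internal membranes or other cell surfaces. Stx4, a plasma membrane syntaxin of many cell types, differed by 0.03 and 0.02. Stx16, of the trans-Golgi network, differed by -0.15 ± 0.06 (SE) at day 7, where 5 of 7 rats lay below the naive range (limma adjusted p 0.504), and by -0.09 without naive replicate 4. Stx17, which joins autophagosomes to lysosomes, differed by 0.15 ± 0.07 and 0.20 ± 0.07 (SE), with 6 of 7 rats above the naive range at either day and limma adjusted p of 0.591 and 0.153. Its mean level over all arrays was 6.05, close to the log2 6 below which 75.4% of all genes lay above naive at day 14. The part of such an offset in Stx17 was not tested. Snap23, the general relative of Snap25, differed by -0.06 and -0.11, and Snap29, which partners Stx17 in autophagy, by 0.04 and 0.02. Snap91, the clathrin adaptor AP180 of vesicle endocytosis and matched here by its symbol alone, differed by 0.07 and 0.06.

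SNARE regulators showed 1 gene with most operated rats below naive. Stxbp3 (Munc18c), the partner of Stx4, read 9.64, 9.50, 9.64, 9.55 and 9.48 in naive rats, 9.08 through 9.34 to 9.51 at day 7 and 9.15 through 9.45 to 9.65 at day 14. At day 7 6 of 7 rats lay below the naive range, and at day 14 4 of 7 did. The difference was -0.27 ± 0.09 and -0.15 ± 0.09 (SE), with limma adjusted p of 0.454 and 0.386. Stxbp5 (tomosyn), an inhibitor of SNARE assembly, differed by 0.04 and -0.04, and its 2 further probe sets by 0.00 and 0.09 at day 7 and by -0.19 and 0.13 at day 14. Cplx2 varied by 0.322 (SD within groups) and differed by 0.10 ± 0.17 and 0.07 ± 0.17 (SE). Cplx3, a complexin known from retinal ribbon synapses, was below log2 6 and differed by 0.20 and 0.11.

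Among the 4 Rab3 GTPases, which mark vesicles for docking, Rab3c lay above naive at day 14 and Rab3a slightly below. Rab3a read 11.58, 11.84, 11.79, 11.75 and 11.62 in naive rats and differed by -0.07 ± 0.07 and -0.05 ± 0.07 (SE), while its dimmer probe set gave 0.22 and 0.18. Rab3c read 8.31, 8.49, 8.14, 8.21 and 7.95 in naive rats, 8.10 through 8.28 to 8.77 at day 7 and 8.33 through 8.65 to 8.85 at day 14. At day 14 4 of 7 rats exceeded the highest naive rat, and the groups overlapped. The difference was 0.34 ± 0.12 (SE), 1.27-fold with an interval from 1.06 to 1.51 (limma adjusted p 0.155). Whether Rab3c and Rab3a differ from each other was not tested. Rab3b differed by 0.03 and 0.00, and Rab3d, known from exocrine granules, by 0.13 and 0.15.

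Rab3ip (Rabin8), an exchange factor that binds Rab3a and activates Rab8 in cilium assembly, was the only gene of the 71 whose day 14 rats did not overlap with naive. Naive values were 9.28, 9.14, 9.19, 9.24 and 9.27, day 7 ran from 8.78 through 8.99 to 9.31, and day 14 from 8.55 through 9.00 to 9.09. All 7 day 14 rats lay below the lowest naive rat, an arrangement found in either direction for 1.8% of all genes. The difference was -0.31 ± 0.10 (SE), 0.806-fold with an interval from 0.699 to 0.93 (limma adjusted p 0.123). The dimmer Rab3ip probe set differed by -0.15 at day 14 but by 0.11 at day 7, where the brighter one gave -0.17.

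The symbol start Rab3 also takes in 11 Rab GTPases numbered in the thirties, which serve other steps of membrane traffic. Rab33a, a Golgi-derived vesicle GTPase implicated in axon outgrowth, read 9.96, 9.89, 9.95, 9.74 and 9.79 in naive rats, 10.01 through 10.16 to 10.34 at day 7 and 9.67 through 10.08 to 10.38 at day 14. All 7 day 7 rats lay above the highest naive rat, as 0.535% of all genes do in either direction, and Rab33a was the only one of the 71. At day 14 the groups overlapped, with 5 of 7 rats above and 1 below the naive range. The difference was 0.28 ± 0.10 (SE, limma adjusted p 0.455) at day 7, or 1.21-fold, and 0.21 ± 0.10 (SE, limma adjusted p 0.236) at day 14. None of the 71 genes separated day 14 from day 7 without overlap, where 0.204% of all genes did. With the animal code letters as a block the Rab33a value at day 14 was 0.34. Day 14 minus day 7 was -0.30 ± 0.10 (SE, limma adjusted p 0.352) for Rab37, of secretory granules, and 0.18 ± 0.11 (SE) for Rab38, known from melanosomes. With the code letters as a block the Rab37 value was -0.49.

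**Figure D4:**
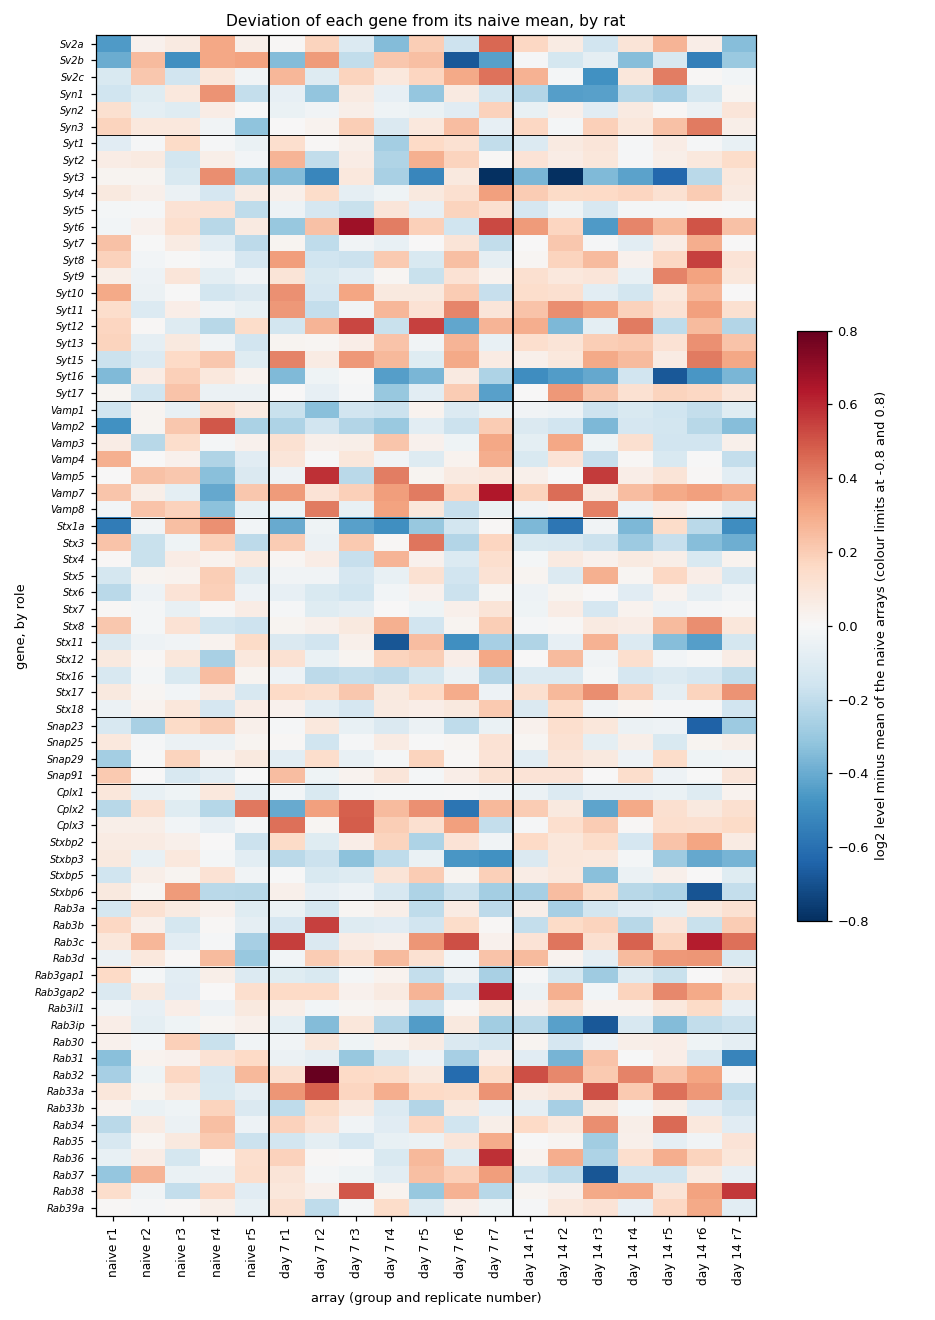
Log2 level of each of the 71 genes (rows, by role) minus its naive mean, for each array (columns), with red above and blue below the naive mean. Rows differ more than columns: no array is uniformly red or blue, and day 7 replicate 7 is the highest array for 13 genes.

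Further probe sets of a gene had the sign of the brightest one in part. Of the 36, 17 had the sign of the brightest probe set at day 7, 19 at day 14 and 22 between the days. All further probe sets had that sign for 12, 13 and 16 of the 29 genes. All 36 intervals overlapped that of the brightest probe set, and 0 passed the limma test, with a smallest adjusted p of 0.163 at day 14. Of the 20 that lay below log2 6, 17 were above naive at day 7 and 19 at day 14. Of all genes whose brightest probe set lay below log2 6, 75.4% were above naive at day 14, against 43.5% of brighter genes. Among the 71, 10 of the 10 dim genes were. At day 7 the shares were 63.7% of dim and 44.3% of brighter genes, and 5 of the 10 dim genes among the 71 were above naive. After a second quantile normalization the dim share at day 14 was 58.4% and 7 of 10. Small positive values of the dim genes Syt1, Syt2, Syt7, Syt9, Syt13, Syn3 and Cplx3 stand beside this offset, and its part in them was not tested.

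Genes around this machinery were read in the same way. In 6 lists (active zone and release machinery, other vesicle membrane proteins, vesicle endocytosis, dense core vesicles, exocyst and tethers, other SNARE proteins), 120 of 132 genes were measured and 0 passed the limma test in any comparison. Of all probe sets, 0% passed at day 7, 0.139% at day 14 and 0% between the days. At an unadjusted p under 0.05, 4 lay above naive at day 7 (3.33%, beside 3.58% of all genes) and 6 below (5% beside 6.37%). At day 14 12 lay above (10% beside 9.17%) and 12 below (10% beside 10.2%). Between the days 5 were higher at day 14 (4.17% beside 6.11%) and 6 lower (5% beside 4.43%). The medians from naive were 0.01 on both days. At day 14 the dense core vesicle list held the most genes under this unadjusted p, with 5 above and 3 below naive of 20 measured. Over all genes 19.4% reached it. In that list Scg5, a chaperone of a prohormone convertase, differed by -0.23 ± 0.05 (SE, limma adjusted p 0.0744) at day 14. Vps33a, a Munc18-like protein of lysosome fusion among the other SNARE proteins, differed by -0.24 ± 0.06 (SE, limma adjusted p 0.0769). Directions differed from list to list at day 14, where 50.7% of all genes lay above naive. The vesicle endocytosis list had 17 of 22 genes above (median 0.05) and the dense core vesicle list 12 of 20 (0.05). The active zone list had 14 of 29 above (-0.00), the other vesicle membrane proteins 10 of 22 (-0.00), the other SNARE proteins 5 of 17 (-0.06) and the exocyst and tethers 3 of 10 (-0.06).

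Operated rats varied widely in Atf3, a transcription factor induced in neurons whose axons are injured, and the 71 genes were set against it. This relation was chosen after the data were seen. Atf3 lay between 7.94 and 8.44 in naive rats and between 7.28 and 11.63 in the 14 operated rats, with no gap between neighbouring rats wider than 0.873. A limma slope on Atf3 with the day as a term passed the test for 0 of 71 genes, where 0.216% of all other probe sets passed. At an unadjusted p under 0.05, 7 slopes were positive, where 7.57% of all genes were, and 1 negative, where 2.62% were.

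Stx1a had the smallest p. In the 3 operated rats with the lowest Atf3 it stood at 7.67, 7.86 and 7.73, and in the 3 with the highest at 8.31, 8.13 and 8.14, against naive values of 7.60 to 8.53. Its slope was 0.144 ± 0.028 (SE, limma adjusted p 0.0506) log2 units per log2 unit of Atf3. The adjusted p ranged from 0.0193 (without day 7 replicate 1) to 0.1602 (without day 14 replicate 3) over the 14 rats left out singly, and it was also under 0.05 without day 7 replicate 5 (0.0466). It was 0.0457 when dim probe sets were left out of the adjustment, 0.0958 with the replicate number as a block and 0.270 without the 2 rats farthest from the median of Atf3. The slope was 0.114 within day 7 (limma adjusted p 0.9999) and 0.181 within day 14 (0.176), and 0.000 for the dim second probe set. The 3 operated rats highest in Atf3 thus lay within the naive range of Stx1a. Without naive replicate 1, those at 8.125 and 8.136 would lie just under the lowest naive value of 8.137. The 3 operated rats lowest in Atf3 stood within the naive range only through naive replicate 1 (7.60), and below the other naive values of 8.14 to 8.53.

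Rab33a and Rab31, a GTPase of the trans-Golgi and endosomes, had positive slopes too. The Rab33a slope was 0.112 ± 0.027 (SE, limma adjusted p 0.171), and it was 0.065 within day 7 and 0.168 within day 14. For Rab31 it was 0.110 ± 0.030 (SE, limma adjusted p 0.258), and 0.039 and 0.194 within the days, whereas its further probe set gave -0.060. Rab33a stood at 10.30, 10.34 and 10.38 at the highest Atf3 and at 10.16, 10.025 and 10.04 at the lowest. Both sets of rats lay above all naive rats. The rat next lowest in Atf3, day 14 replicate 7 (8.12), had a Rab33a level of 9.67, below all naive rats. Without it the Rab33a slope was 0.089. Snap25 had a slope of -0.039 ± 0.019 (SE).

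**Figure D5:**
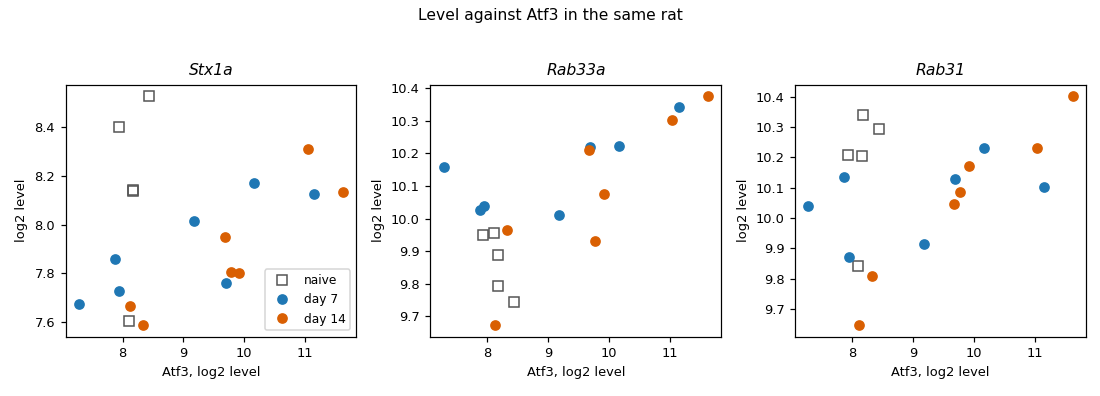
Log2 level of Stx1a, Rab33a and Rab31 (y axes) against that of Atf3 (x axes) in the same rat, for naive (open squares, n = 5), day 7 (blue, n = 7) and day 14 (orange, n = 7) rats. Over the 14 operated rats the slopes were 0.144, 0.112 and 0.110, none past an adjusted p of 0.05.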

How the data were processed

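Single T11 ganglia of 19 rats were measured. The submitters removed 1 further naive array, not analysed here. Log2 levels per probe set were deposited, which the authors made with RMA per the submitters' processing notes, versions not given in the sources used here. RMA gives all arrays a common distribution, so a shift of most transcripts would be hidden. The number of arrays limits the precision, and the median SE of a member's difference from naive was 0.089. Of 31099 probe sets, 57 controls were left out. Symbols came from the platform annotation, updated through RefSeq gene names: 20826 probe sets had 1 symbol, 436 several and 9780 none. Some genes of these families are not reported here.

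Group differences came from limma 3.58.1 under R 4.3.3 (lmFit, eBayes), with all 3 groups in 1 fit. P-values were adjusted by Benjamini-Hochberg over all 31042 probe sets within a comparison, with a threshold of 0.05. The procedure was checked on simulated data with added differences and slopes larger than any found for the members. That check does not bear on effects of the size seen here. Named were the 5 smallest p in each direction of each comparison, genes without overlap and a set of 34 core genes, of which 31 were measured. Arrays come from separate rats. Groups compared with naive share the naive rats. The members and lists were chosen with earlier results of these data known. Alternatives covered dim probe sets, normalization, centring, moderation, array weights, fitting only the groups compared, testing genes, blocks, 3' to 5' signal and leaving out each array. Tables and plots used Python 3.11.15, numpy 2.4.6, pandas 2.3.3 and matplotlib 3.10.9.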

Additional observations from a re-analysis of the deposited data

Results flagged for a closer look

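Of 213 sets of values (71 genes in 3 groups), 13 held a rat far from the others of its group by Dixon's criterion, which chance meets in about 1 of 20. Day 14 replicate 3, the operated rat with the highest Atf3, accounted for 6 of them. It was lowest for Cplx2 (9.19, next 9.69), Rab37 (7.82, next 8.30), Stxbp5 (9.61, next 9.85) and Syt6 (8.93, next 9.56), and highest for Vamp5 (8.90, next 8.44) and Vamp8 (10.13, next 9.79). Among naive rats, Rab31 was low on replicate 1 (9.84, next 10.20), Stx4 on replicate 2 (9.83, next 10.01), Stx12 on replicate 4 (10.995, next 11.26) and Stxbp2 on replicate 5 (6.46, next 6.64). At day 7, Cplx1 was low on replicate 2 (12.79, next 12.89) and Vamp2 high on replicate 7 (10.33, next 10.04). Cplx1 was high on day 14 replicate 7 (12.94, next 12.86). No cause was tested.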

How the results depend on the processing

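Under 30 alternative settings the count of genes past the threshold stayed at 0 in the group comparisons, except at day 14 without naive replicate 1, where Syt16 passed (range 0 to 1 over single arrays left out). The median difference moved by more than its spread between rats in 4 cases: at day 7 to 0.0082 without the 3 muscle-rich arrays, at day 14 to -0.015 with the animal code letters as a block and to 0.048 without day 14 replicate 7 (0.017 to 0.048 over single arrays), and between the days to 0.015 with array weights. On the Atf3 slope 1 gene, Stx1a, passed without dim probe sets and without day 7 replicate 1 or 5 (0 to 1 over single arrays). The cause of these moves was not tested. Named genes changed sign in 52, 60 and 93 of 1388 values in the 3 comparisons. Only Syt9 at day 14 did so from beyond 2 SE, from 0.15 to -0.01 with the code letters as a block. Over all probe sets the 43 calls at day 14 became 9 with the replicate block, 0 with the code letters, 13 with the 2 groups alone, 76 with array weights, 28 after quantile normalization, 12 without the muscle-rich arrays and 5 to 401 with single arrays left out. With the code letters the median SE at day 14 against naive rose from 0.080 to 0.126 over all probe sets. That block leaves 2 day 14 rats to carry the estimate, so its smaller values also come with less precision. Of 17 same-numbered pairs, 3 had a correlation of deviations above 0.1. These pairs ran from -0.26 to 0.33, and the 102 pairs with other numbers from -0.35 to 0.38. For 5 of 19 arrays the best match in another group carried their own number. Whether replicate numbers pair the rats was not tested. With the replicate number as a block, 0 genes passed in any comparison or on the Atf3 slope, and the medians were 0.02, 0.03 and -0.01.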
